A study of Mus musculus with 23 samples.

Results

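The apolipoprotein, lipid enzyme and sorting receptor genes Apoe, Clu, Apod, Lcat, Vldlr, Sort1 and Sorl1 were followed across the cell classes of the mouse brain. They were taken by symbol from the list of measured genes, where each matched 1 Ensembl gene, so they make up 7 of 32285 genes. The data are single-cell RNA-seq counts from mouse brain, in 23 libraries, from mice that received 45 mg/kg of a dye-labelled antibody (AF647, the labels' Alexa647) into the tail vein. The ATV-TfR groups were TfR mu/hu KI mice given DNP02_hIgG1_LALAPG_ATV35.23.2 - Alexa647, and the ATV-CD98hc groups were CD98hc mu/hu KI mice given DNP02 LALAPG LLB2-10-8 monovalent - Alexa647. Control IgG groups were C57BL/6 mice given DNP02_hIgG1_LALAPG_Alexa647. An ATV is an antibody transport vehicle, an IgG whose Fc part was made to bind a receptor at the blood-brain barrier, here the transferrin receptor (TfR) or the heavy chain of CD98 (CD98hc). Antibody and mouse strain coincide in every group, so their effects cannot be told apart. Mice were 12 weeks or 3.3 months old and were perfused 24 hours after the dose, and the brains were taken without olfactory bulb, cerebellum, pons and medulla. Cells of 1 male and 1 female were pooled, and every pool was sorted into AF647-negative, low, medium and high bins of about 60000 cells, with the gates set on ATV-TfR mice and applied to all. Per the labels, AF647-positive cells made up about 30% of live cells in ATV-TfR, about 20% in ATV-CD98hc and about 1% with control IgG. Each treatment had 2 pools, the negative bin of control IgG pool 1 was not analysed here, and the 4 bins of a pool share the same animals. P-values below therefore rest on these few pools. The tests treat the libraries of a class as independent, although bins of a pool share animals.

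Apolipoprotein E, the product of Apoe, and clusterin, the product of Clu, are the main protein parts of the lipoprotein particles that glia secrete, and they carry cholesterol and phospholipid between brain cells. Apolipoprotein D, the product of Apod, is a lipocalin that binds small lipophilic molecules and is known in the brain from oligodendrocytes and from cells around vessels and meninges. Lecithin-cholesterol acyltransferase, encoded by Lcat, esterifies the cholesterol on such particles. The very low density lipoprotein receptor, encoded by Vldlr, binds apolipoprotein E and also reelin, while sortilin (Sort1) and SORLA (Sorl1) are VPS10-domain receptors that carry cargo, apolipoprotein E and the amyloid precursor protein among them, between Golgi, endosomes and the cell surface.

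All 7 genes are annotated as protein-coding on GRCm38 in GENCODE M21. Apoe lies at chr7:19696109-19699188 on the minus strand, Clu at chr14:65968483-65981547 on the plus strand, Apod at chr16:31296192-31314808 on the minus strand and Lcat at chr8:105939551-105943382 on the minus strand. Vldlr lies at chr19:27216484-27254231 and Sort1 at chr3:108284082-108361511, both on the plus strand, and Sorl1 at chr9:41964720-42124297 on the minus strand. RefSeq promoters (GRCm38.p6) were matched for 5 of the 7 genes; Clu and Sort1 had no entry. The 150 bases before the start are shown for Apoe and Lcat because both rose in the same astrocyte-like libraries below. Apoe had 3 entries, and the one whose stretch ends at the gene's annotated start is shown. The Lcat stretch ends at the RefSeq start, which lies upstream of the GENCODE start given above, and positions are counted from it. The Apoe stretch is chr7:19699189-19699338 and the Lcat stretch chr8:105943403-105943552, both read 5′ to 3′ on the minus strand. Capitals mark TTGGC, the letters of a nuclear factor I half-site, on either strand.
Apoe: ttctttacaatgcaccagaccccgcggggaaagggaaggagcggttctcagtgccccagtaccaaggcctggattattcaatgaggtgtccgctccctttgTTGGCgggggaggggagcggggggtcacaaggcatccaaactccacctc
Lcat: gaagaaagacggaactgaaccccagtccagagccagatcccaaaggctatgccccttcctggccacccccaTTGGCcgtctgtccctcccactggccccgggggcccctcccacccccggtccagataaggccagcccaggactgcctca
The motif starts at position -49 from the start in Apoe and at position -79 in Lcat. There it overlaps a CCAAT of the opposite strand, which reads ATTGG from position -80 on the strand shown. TTGGC was present in 29.0% of the 32851 promoter stretches of this length and CCAAT in 24.5%, and the TATA box (TATAAA), the GC box (GGGCGG), a nuclear receptor site (AGGTCA) and an E-box (CACGTG), searched on both strands, were absent from both stretches. Of the other Apoe stretches, chr7:19698399-19698548 held TTGGC once and no TATAAA, and chr7:19698622-19698771 held TATAAA 2 times and no TTGGC. GC content was 59.3% for Apoe and 66.0% for Lcat, against a median of 54.0% over all stretches. These matches describe letters only.

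The 23 libraries held between 1861238 and 90307818 unique molecular identifiers (UMIs, 1 per captured RNA molecule) and 519 to 19342 kept cells, whose median UMI number lay between 2178 and 4873. The 234026 kept cells formed 48 clusters, of which 32 were named into 17 classes from marker lists that hold none of the 7 genes; 5793 cells (2.48%) stayed unnamed. Cluster 4, with 26106 cells, carried endothelial markers and was led by Gkn3, Stmn2 and Sema3g. Stmn2 is on the neuron list, so the naming rule kept the cluster apart by number. Endothelial-like levels below therefore leave it out. Clusters kept apart in this way held from 0.969% of cells in control IgG high to 24.0% in ATV-TfR high. Of the kept barcodes, 6.14% occurred in more than 1 library, and no pair of libraries shared more than 1.14% of the barcodes of its smaller library. Levels are CPM, a gene's UMIs scaled to 1e+06 UMIs of the class, from sums by class and pool across bins for levels and by class and library for tests. They are compared within a gene across classes, never between genes, since gene length is not accounted for.

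Each of the 7 genes had its own order of cell classes. Apoe was highest in border macrophage-like cells, the macrophages of meninges and vessel sheaths, at 32417 ± 7489 CPM (SD, n = 6 pools). Astrocyte-like cells followed at 17232 ± 1596 CPM (n = 5 pools), ependymal-like cells at 7868 ± 1440 CPM and fibroblast-like cells at 7031 ± 625 CPM. The last 2 classes overlapped in their ranges, as did choroid plexus epithelial-like cells (4386 ± 426 CPM), microglia-like cells (4131 ± 4754 CPM) and oligodendrocyte-like cells (3392 ± 662 CPM) with one another. Endothelial-like cells held 1250 CPM and smooth muscle-like cells 484 CPM, and the share of free RNA in these lower levels was not tested. In the negative bins alone border macrophage-like cells stood at 23995 ± 2493 CPM (n = 3 pools).

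Clu was highest in astrocyte-like (2871 ± 324 CPM) and ependymal-like cells (2735 ± 439 CPM), whose ranges overlapped. Choroid plexus epithelial-like cells came next at 1643 ± 145 CPM, below the lowest pool of either. A wide gap then led to fibroblast-like cells at 339 ± 121 CPM, and endothelial-like cells held 13 CPM. Apod had another distribution: fibroblast-like cells held 2591 ± 1253 CPM with a range from 608 to 3614, oligodendrocyte-like cells held 1013 ± 119 CPM, and endothelial-like cells, the next class, held 58.9 ± 11.3 CPM. In the negative bins alone the fibroblast-like level was 7567 ± 1297 CPM (n = 5 pools), so the level of this gene depended on which bins were summed. Lcat was found mainly in astrocyte-like cells, at 163 ± 25.2 CPM, and no other class had a mean above 15.8 CPM, the level in neutrophil-like cells.

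Among the receptors, Vldlr was highest in oligodendrocyte-like cells at 154 ± 12.9 CPM. Choroid plexus epithelial-like cells followed at 72.2 ± 15.2 CPM, overlapping oligodendrocyte precursor-like cells at 62.1 ± 20.5 CPM (n = 3 pools), and astrocyte-like cells held 15.7 ± 1.60 CPM. Sort1 was also highest in oligodendrocyte-like cells, at 301 ± 28.1 CPM with a lowest pool of 280, above smooth muscle-like cells, whose highest pool was 269.5 around a mean of 236 ± 32.3 CPM. Neuron-like (187 ± 53.0 CPM, n = 3 pools), pericyte-like (169 ± 20.1 CPM), microglia-like (157 ± 49.6 CPM) and astrocyte-like cells (111 ± 4.34 CPM) all carried it. Sorl1 was highest in neutrophil-like cells at 960 ± 170 CPM. Pituitary endocrine-like (291 ± 254 CPM, n = 3 pools), B cell-like (263 ± 62.7 CPM), neuron-like (224 ± 32.2 CPM, n = 3 pools), astrocyte-like (209 ± 7.11 CPM) and ependymal-like cells (207 ± 18.5 CPM) followed with overlapping ranges, and it stood at 0.8 CPM in endothelial-like cells. Neutrophil-like cells numbered 264 in all, and Sorl1 was lowest in them at 733 CPM in a pool, still above every pool of every other class.

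**Figure D1:**
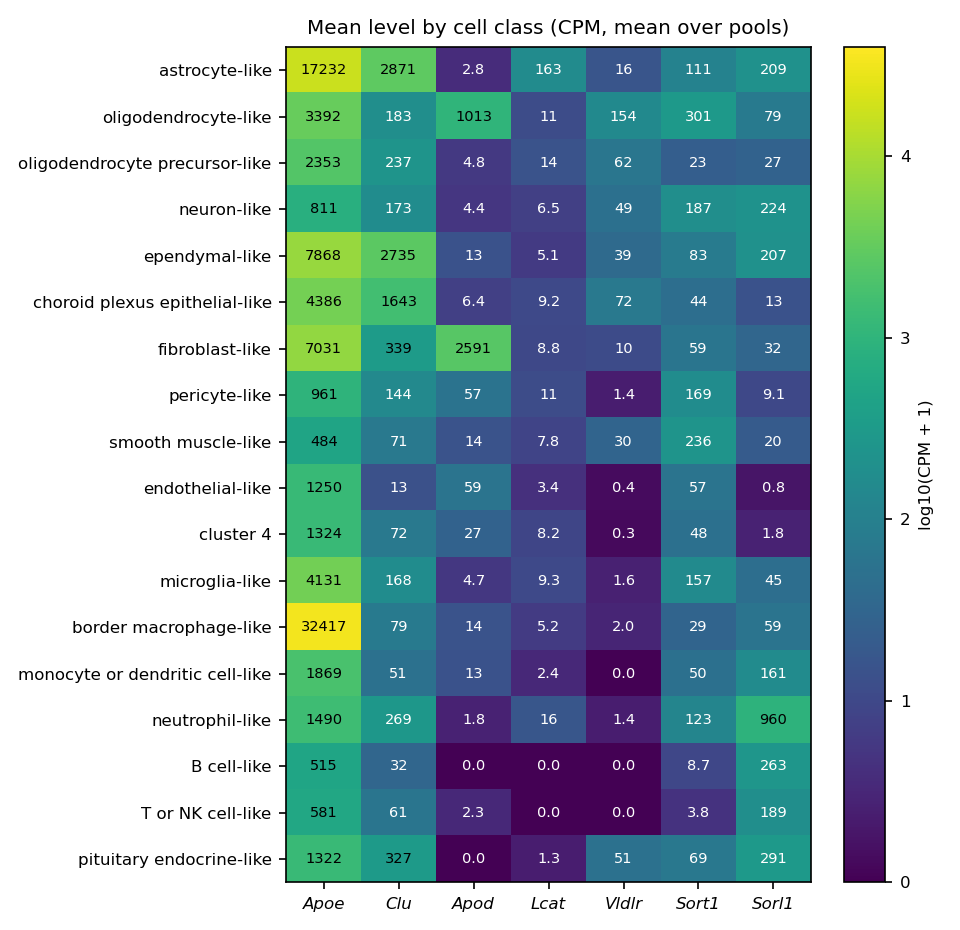
Mean level of the 7 genes in 17 named cell classes and cluster 4, as CPM averaged over pools. Rows are classes, columns are genes, the printed number is the mean CPM and the colour its log10 after adding 1; Lcat is highest in the astrocyte-like row at 163 and Apoe in the border macrophage-like row at 32417.

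The genes whose pattern over the 17 classes was nearest to each member were taken by Pearson correlation of log2 mean CPM, among genes reaching 50 CPM in a class. For Apoe they were C4b (r = 0.85), the cholesterol exporter Abca1 (0.84) and the fatty acid desaturase Fads1 (0.82). For Clu they were Id4 (0.96), the metallothionein Mt3 (0.95) and Wwc1 (0.94), and for Lcat Chrdl1 (0.92), Celrr (0.90) and Gm35552 (0.90). Apod was nearest to Unc5b (0.84), Smco3 (0.82) and the protease Ctsk (0.81), and Vldlr to Fn3k, Ptprf and Atp9a (0.90 each). Sort1 had the loosest matches, with Wfs1 (0.75), Rusc2 (0.73) and Btbd3 (0.72), followed by Sorl1 with Cmip (0.80), Ccdc88c (0.78) and Relt (0.77). The 17 points of each correlation share libraries and depth, so the values describe likeness and carry no test.

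The bins were then compared within a class with edgeR's quasi-likelihood test, Benjamini-Hochberg adjusted over all genes of the class and called below 0.05; differences are given as log2 fold changes with their standard errors (SE). The control IgG negative arm is 1 library in every test that uses it, so its spread is taken from the other groups, and it is assumed to vary like them. A comparison of bins within a treatment could not be repeated without a pool of that treatment. Where such a call is given as lost without a pool, the pool is of another treatment. It enters the comparison only through the fit shared by all libraries of a class. Of 151 member tests over 23 comparisons of an AF647-positive bin with the negative bin in ATV-TfR, 38 were called higher and 11 lower. In ATV-CD98hc 17 were higher and 18 lower of 134, and in control IgG 3 were higher and 17 lower of 80. These totals span comparisons in which different shares of all genes were called, so they carry no background share of their own. The shares stand with the single comparisons below. All 7 genes passed the filter on low counts in 7 of the 11 classes tested. In microglia-like, pericyte-like and border macrophage-like cells 6 passed, and in ependymal-like cells 5 passed.

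In astrocyte-like cells the particle proteins and their enzyme rose with the ATV-TfR signal. Apoe stood at 14533 and 13798 CPM in the ATV-TfR negative bins, 16352 and 16484 in low, 21443 and 20878 in medium, and 28339 and 25248 in high. Both pools therefore rose over the bins, and the groups did not overlap. High exceeded negative by 1.04 (SE 0.13, adjusted p = 2.6e-05, edgeR) and medium exceeded negative by 0.64 (SE 0.13, adjusted p = 0.0052). Clu went from 2369 and 2512 CPM in negative over 2610 and 2743 in low and 3419 and 3713 in medium to 5178 and 4857 in high. Its high bins were above all other bins, by 1.16 over negative (SE 0.17, adjusted p = 0.0001, edgeR), and its medium bins by 0.60 (adjusted p = 0.042, edgeR). The medium call was lost with doublets kept, with marker-rich cells (over 0.2% astrocyte or endothelial marker UMIs) left out, without control IgG pool 2 and within clusters 2, 5 and 16, at values from 0.14 to 0.60. As a class, astrocyte-like cells exceed that limit for the astrocyte list itself, so among them only the endothelial list can mark such cells. Lcat went from 164 and 162 CPM in negative to 234 and 211 in high, 0.57 higher (SE 0.14, adjusted p = 0.0071, edgeR). These are 3 of 7 members called in the high bin, where 16.1% of all genes were called, and 3 of 7 in the medium bin, where 4.43% were. The third member called in medium was Apod, lower by 1.87 at levels of 6.1 CPM and less; it was also the only member called in low, where 1.41% of genes were, lower by 1.48. Both Apod calls were lost with doublets kept. Sort1 (0.04, SE 0.11), Vldlr (0.17, SE 0.18) and Sorl1 (0.26, SE 0.09, adjusted p = 0.058, edgeR) did not pass the test in the high bin.

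ATV-CD98hc gave other values in the same class. Apoe was 13904 and 18611 CPM in negative and 18076 and 19522 in high, with overlapping groups and a difference of 0.17 (SE 0.13, adjusted p = 0.53, edgeR). Clu was 2165 and 3408 CPM in negative and 1719 and 2250 in high (-0.53, SE 0.17, adjusted p = 0.064), and Lcat was 128 and 174 in negative and 133 and 85.6 in high (-0.47, SE 0.18, adjusted p = 0.13). Sorl1 was the member that passed, from 204 and 173 CPM in negative over 220.4 and 215 in low to 233 and 238 in medium and 268 and 267 in high, so that its bins were ordered in both pools. High exceeded negative by 0.46 (SE 0.10, adjusted p = 0.006, edgeR; 7.67% of all genes called) and medium by 0.35 (adjusted p = 0.0087; 15.3% called), the latter not called without either ATV-TfR pool (0.37). In low no member was called (2.93% of genes).

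The difference between the ATVs was tested itself. The change from negative to high was larger in ATV-TfR than in ATV-CD98hc by 0.87 for Apoe (SE 0.19, adjusted p = 0.0064, edgeR), 1.69 for Clu (SE 0.24, adjusted p = 0.00021) and 1.04 for Lcat (SE 0.22, adjusted p = 0.0065), 3 of 7 members against 7.24% of all genes. Without ATV-TfR pool 1 or pool 2 the Apoe and Lcat values were 0.79 to 0.95 and 0.94 to 1.15 and were no longer called, and without ATV-CD98hc pool 2 the Lcat value was 0.53 and not called; the Clu call was kept without each pool. Within cluster 2 alone none of the differences was called, at 0.43 for Apoe, 0.93 for Clu and -0.0023 for Lcat. In the high bins directly, ATV-TfR exceeded ATV-CD98hc by 0.67 for Apoe (adjusted p = 0.0021, edgeR), 1.50 for Clu (adjusted p = 1.2e-05) and 1.17 for Lcat (adjusted p = 0.00026), where 11.6% of genes were called; the Apoe call was lost without ATV-TfR pool 1 (0.57) and within cluster 2, and the Lcat call within clusters 2 and 5. In the medium bins 20.2% were called, and among the members Apoe (0.40), Lcat (0.77) and Vldlr (0.46) were higher and Apod lower in ATV-TfR; of these the Lcat call was kept without each pool, and the others were lost without either ATV-TfR pool. In the negative bins no member differed between any pair of treatments in these cells, at 0.0125%, 0.43% and 0.792% of genes called, and control IgG pool 2 held 14679 CPM of Apoe and 2359 CPM of Clu.

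**Figure D2:**
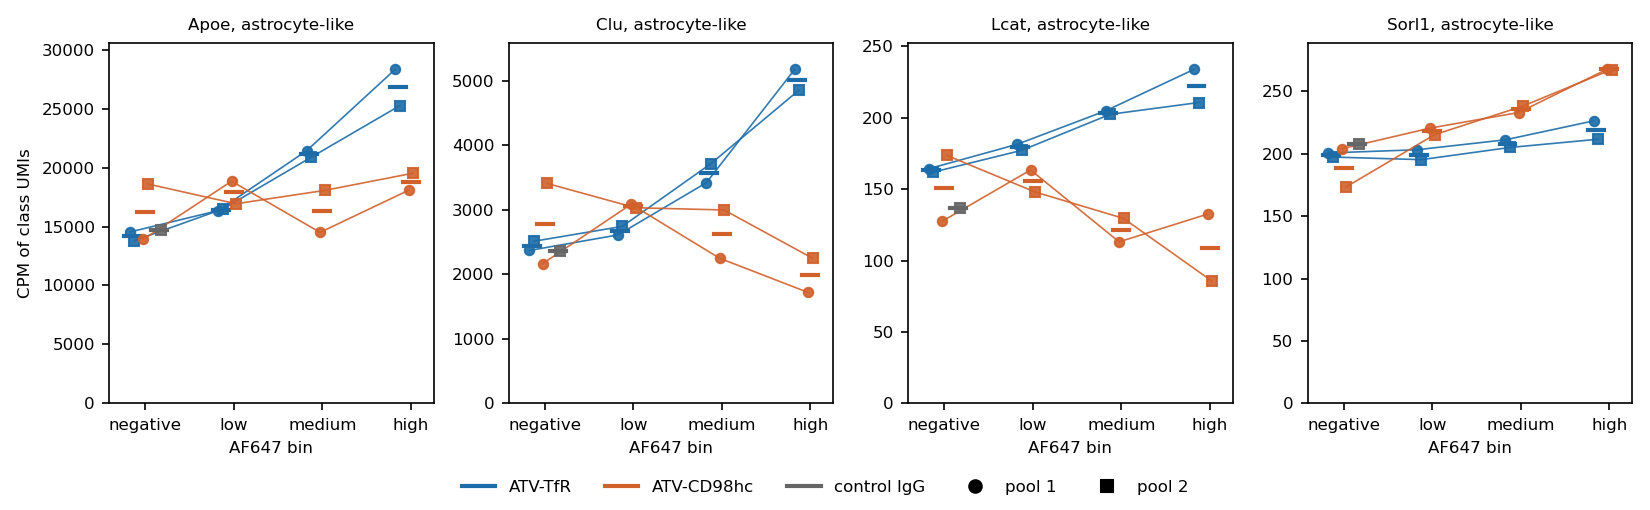
Apoe, Clu, Lcat and Sorl1 in astrocyte-like cells by AF647 bin, in CPM per library. Points are pools, joined by lines, and bars are group means; Apoe and Clu climb to 28339 and 5178 CPM in ATV-TfR high, while in ATV-CD98hc Clu ends at 1719 and 2250 CPM and Sorl1 at 268 and 267 CPM.

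Several measures moved with these astrocyte values. The high bins held few astrocyte-like cells, 582 and 397 in ATV-TfR and 182 and 206 in ATV-CD98hc, and their summed endothelial marker list rose from 12.2 CPM or less in the negative bins of both ATVs to between 193 and 487 CPM. The astrocyte marker list rose from 24596 and 24760 CPM to 33757 and 34336 CPM in ATV-TfR, and Apoe per UMI of that list went from 0.591 and 0.557 to 0.840 and 0.735. In ATV-CD98hc the same ratio went from 0.57 and 0.73 to 0.74 and 0.84. Lcat per list UMI was 0.00668 and 0.00654 in ATV-TfR negative and 0.00693 and 0.00614 in high, so Lcat moved with the list. The mix of astrocyte clusters changed as well: cluster 0, with 21187 CPM of Apoe, went from 32.9% to 50.9% of the class in ATV-TfR and from 41.5% to 10.1% in ATV-CD98hc, and cluster 5, with 9151 CPM, from 27.2% to 10.6% and from 17.5% to 29.4%. Cluster 2, at 21165 CPM close to cluster 0 in Apoe but with 2368 CPM of Clu against 4305, went from 18.4% to 31.1% in ATV-TfR and from 24.7% to 55.2% in ATV-CD98hc. Cluster 16, highest in both genes at 42627 CPM of Apoe and 8315 CPM of Clu, went from 7.39% to 1.63% in ATV-TfR and from 2.46% to 0.258% in ATV-CD98hc. Within cluster 5 alone the ATV-TfR high change was 0.22 for Apoe, 0.10 for Clu and 0.07 for Lcat, none called, and within cluster 2 the Lcat change was -0.12, while the Apoe and Clu calls were kept within clusters 0, 2 and 7. Sorl1 stood at 148 CPM in cluster 0, 259 CPM in cluster 2 and 290 CPM in cluster 5. The Sorl1 change in ATV-CD98hc high was 0.17 within cluster 2 and -0.16 within cluster 5, neither called. Its ATV-CD98hc medium value turned negative within cluster 2. Fewer cells of a kind and less RNA per cell cannot be told apart within a summed class.

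Other genes of the pathway were read from lists of related genes in the same 2 comparisons, where 16.1% of all genes were called in ATV-TfR high and 7.67% in ATV-CD98hc high. Of 5 other apolipoproteins tested in astrocyte-like cells, Apoc1, a small apolipoprotein of the Apoe gene cluster, was the 1 called, higher in ATV-TfR high (1.57, SE 0.21) and in ATV-CD98hc high (1.95, SE 0.27). Of 16 lipid loading and remodelling genes, 5 rose and 1 fell in ATV-TfR, led by the phospholipid transfer protein Pltp (2.61, SE 0.17) and the lysosomal cholesterol carrier Npc2 (0.85, SE 0.12), and 2 rose and 1 fell in ATV-CD98hc, Pltp (1.98), Abcg1 (2.08) and Npc1 (-0.85). The Apoe exporter partner Abca1 gave 0.09 (SE 0.10) and 0.07 (SE 0.12), neither called. Of 13 other lipoprotein receptors, Lrp10, Lrpap1 and Lrp1 rose and Lrp12 fell in ATV-TfR, while in ATV-CD98hc 4 rose, Reln and Scarb1 among them, and 3 fell, with the reelin adaptor Dab1 at -1.06. Of 17 other sorting receptors and partners, 5 rose in ATV-TfR, led by Psap (1.05) and App (0.98), and 3 rose and 1 fell in ATV-CD98hc, with App at 1.41. The endothelial marker list had also risen in these high libraries of both ATVs, as given above. The part of endothelial RNA in the list-gene values was not tested. Their calls were not rerun with marker-rich cells left out or within single clusters, since the alternatives covered the members only.

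In microglia-like cells Apoe rose in AF647-positive bins of all 3 treatments. In ATV-CD98hc it was 600 and 1938 CPM in negative, 2770 and 3752 in low, 1482 and 3425 in medium and 5595 and 8796 in high. In ATV-TfR it was 692 and 954 CPM in negative, 3268 and 4153 in low and 11762 and 6769 in medium. Control IgG held 1017 CPM in its negative library and 14286 and 12091 in low, the highest libraries of the class. Apart from ATV-CD98hc negative and medium, no positive bin overlapped its negative bin. The differences were 2.48 in ATV-CD98hc high (SE 0.44, adjusted p = 0.00053, edgeR), 2.23 and 3.57 in ATV-TfR low and medium (adjusted p = 0.00043 and 3e-06) and 3.70 in control IgG low (SE 0.61, adjusted p = 0.0019). In ATV-CD98hc low it was 1.41 (adjusted p = 0.031), which fell to 0.13 and was not called once the marker-rich cells were left out.

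Clu and Lcat divided these libraries into distinct sets. Clu was 41.6 to 60.1 CPM in all 5 negative libraries, 349 and 553 in ATV-CD98hc low, 319 and 454 in ATV-TfR low and 667 and 404 in ATV-TfR medium, but 9.8 and 19.2 in ATV-CD98hc medium and 43.1 and 7.4 in ATV-CD98hc high. The low bins and ATV-TfR medium were thus several times above negative, by 3.19, 3.07 and 3.57 (adjusted p = 9.3e-08, 8.5e-09 and 6.7e-09, edgeR), and ATV-CD98hc medium was below it by 2.05 (adjusted p = 0.0073); the latter call was lost with marker-rich cells left out (-1.13) and within cluster 8 alone (-2.22). Lcat followed the same libraries, at 4.4 CPM or less in negative and 18.6 to 50.5 in ATV low bins and ATV-TfR medium. The astrocyte marker list moved with both genes: 684 to 967 CPM in negative, 3304 to 5927 in the ATV low bins, 6718 and 3978 in ATV-TfR medium, 363 and 324 in ATV-CD98hc medium, 296 and 148 in ATV-CD98hc high and 219 and 66.0 in control IgG low. Apoe did not keep to that list. In the negative libraries it was 0.783 and 2.56 UMIs per list UMI in ATV-CD98hc, 1.01 and 1.23 in ATV-TfR and 1.05 in control IgG. It was 0.633 to 0.889 in the ATV low bins, near the astrocyte-like value of the same libraries (0.635 to 0.738), 1.75 and 1.70 in ATV-TfR medium, and 18.9 and 59.5 in ATV-CD98hc high. There the Apoe difference was 2.81 within the larger microglia cluster alone and 3.00 with the marker-rich cells left out, both called.

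Called members in microglia-like cells were 1 of 6 in ATV-CD98hc high (6.83% of genes), 4 of 6 in ATV-CD98hc low (8.92%, with Sorl1 at 1.07, which fell to 0.07 and was not called with marker-rich cells left out), 1 of 6 in ATV-CD98hc medium (6.45%), 3 of 6 in ATV-TfR low (11.1%) and medium (12.5%), and 1 of 6 in control IgG low (1.21%). Medium ATV-TfR exceeded medium ATV-CD98hc in Apoe by 2.05, in Clu by 5.54 and in Lcat (7.88% of genes called); the Apoe call was lost without ATV-TfR pool 1 (1.53), and with marker-rich cells left out neither Apoe (1.46) nor Clu (2.40) was called. Several positive libraries were small, with 77 and 33 cells in ATV-CD98hc high, 62 and 54 in ATV-TfR medium and 27 and 26 in control IgG low. The microglia marker list was 18321 to 21626 CPM in negative and 11808 to 16985 in every positive library, and the border macrophage list, whose class carries the most Apoe, stayed at 167 to 302 CPM throughout. The endothelial list reached 5538 CPM in ATV-CD98hc medium. The part of these lists in the Apoe difference was not tested beyond the alternatives named.

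**Figure D3:**
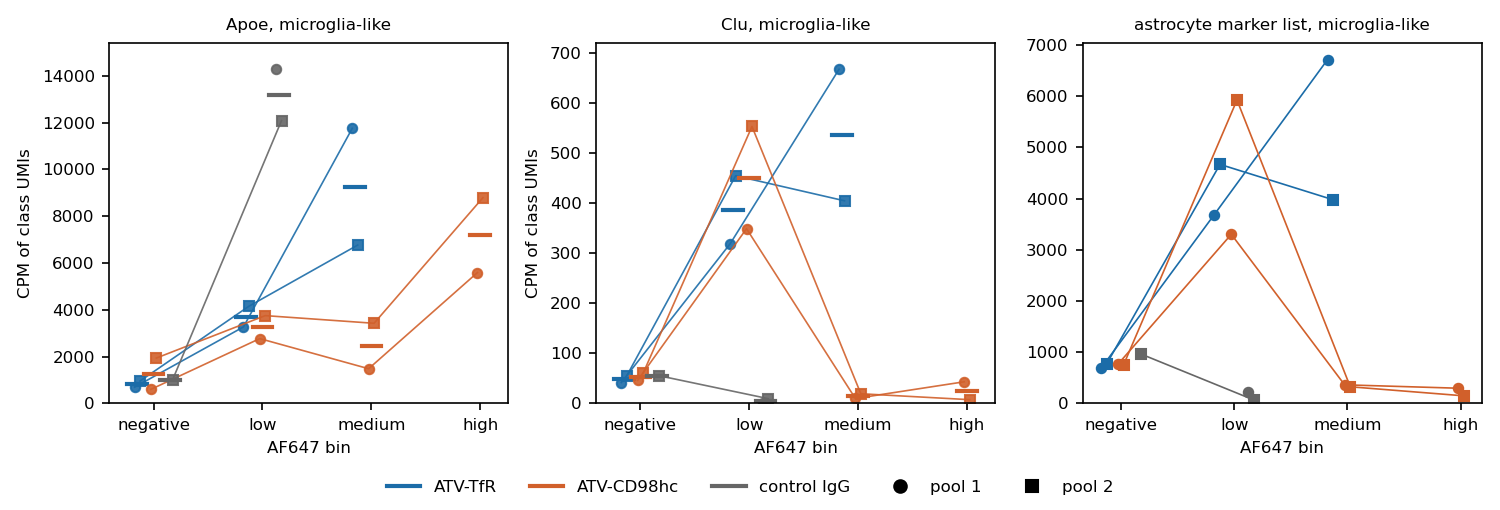
Apoe, Clu and the summed astrocyte marker list in microglia-like cells by AF647 bin, in CPM per library. Points are pools, joined by lines, and bars are group means; Apoe reaches 14286 CPM in control IgG low and 8796 in ATV-CD98hc high, where the astrocyte list is at 219 and 148 CPM.

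In oligodendrocyte-like cells 2 of their own high members fell. Apod was 1143 and 1101 CPM in ATV-CD98hc negative and 606 and 649 in medium, and 822 and 1164 in ATV-TfR negative, 1053 and 1152 in low and 293 and 337 in medium. Sort1 was 352 and 312 CPM in ATV-CD98hc negative and 207 and 208 in medium, and 310 and 323 in ATV-TfR negative and 118 and 107 in medium. Medium libraries lay below all negative libraries for both genes in both ATVs. In ATV-TfR medium Apod fell by 1.66 (SE 0.20, adjusted p = 6.3e-06, edgeR) and Sort1 by 1.49 (SE 0.18, adjusted p = 5.2e-06); in ATV-CD98hc medium Apod fell by 0.94 (adjusted p = 0.0019) and Sort1 by 0.78 (adjusted p = 0.003). Sort1 also fell by 0.71 in ATV-CD98hc low (adjusted p = 0.0065, edgeR). With marker-rich cells left out the ATV-CD98hc calls were lost, at -0.37 for Apod and -0.44 for Sort1 in medium and -0.44 for Sort1 in low. Vldlr, which like Sort1 is highest in this class, was 87.6 to 180 CPM in all 14 libraries and was called in no comparison of this class.

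The other members were less uniform. In ATV-CD98hc medium Apoe fell by 0.82 (adjusted p = 0.017, edgeR) and Sorl1 by 1.05 (adjusted p = 0.0035; -0.95 and not called with marker-rich cells left out), while in ATV-TfR medium the values were -0.10 and -0.43, not called. Clu rose from 67.4 to 104 CPM in the negative libraries to as much as 689 CPM in low and 594 CPM in medium, by 1.54 to 2.80 in both ATVs, and Lcat rose in 3 of the 4 comparisons. With marker-rich cells left out none of the 4 Clu differences was called: ATV-CD98hc medium turned to -0.81, and the others were 0.15 to 0.36. The Lcat rises in both low bins were not called then either (2.00 and 1.64). Within cluster 18 alone none was called either, with ATV-CD98hc medium at -1.42. Per astrocyte-list UMI, Clu was 0.085 to 0.173 in oligodendrocyte-like cells and 0.088 to 0.153 in astrocyte-like cells of the same libraries, and that list rose from 636 to 917 CPM in negative to as much as 5701 CPM. Members called were 4 of 7 in ATV-TfR medium (19.7% of genes), 5 of 7 in ATV-CD98hc medium (19.3%), 3 of 7 in ATV-CD98hc low (15.1%) and 2 of 7 in ATV-TfR low (10.2%). Between the ATVs in the medium bin 4 of 7 were called (12.9%), with Apod lower by 0.91 and Sort1 by 0.79 in ATV-TfR, neither of which was called without ATV-TfR pool 1 (-0.81 and -0.87). Cluster 18, which held 256 CPM of Apod against 1067 in cluster 9, made up 5.06% of the class in ATV-CD98hc negative and 57.6% in medium, and 16.6% and 37.4% in ATV-TfR. Within cluster 9 alone the ATV-CD98hc medium change was -0.47 for Apod and -0.58 for Sort1, neither called, and the ATV-TfR calls were kept.

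In choroid plexus epithelial-like cells the receptors Vldlr and Sort1 were higher in the high bins of both ATVs. Vldlr was 55.2 and 48.1 CPM in ATV-CD98hc negative and 120 and 134 in high, and 56.5 and 69.0 in ATV-TfR negative and 104 and 147 in high. Control IgG held 64.0 CPM in negative, 126 and 104 in medium and 120 and 118 in high. Every high library lay above every negative library. The differences were 1.02 in ATV-CD98hc high (SE 0.24, adjusted p = 0.0014, edgeR), 0.88 in ATV-TfR high (SE 0.21, adjusted p = 0.0029) and 0.78 in control IgG medium (SE 0.26, adjusted p = 0.043), and 0.70 in control IgG high was not called (adjusted p = 0.12). The control IgG medium call was lost with the pools as a block (0.71, adjusted p = 0.085), with DESeq2 and with at least 50 cells.

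Sort1 in the same cells was 46.0 and 24.1 CPM in ATV-CD98hc negative and 73.9 and 76.5 in high, 27.1 and 35.6 in ATV-TfR negative and 57.8 and 50.1 in high, and 34.2 in control IgG negative and 73.6 and 66.0 in medium. It rose by 0.70 in ATV-CD98hc high (SE 0.24, adjusted p = 0.03, edgeR), 0.68 in ATV-TfR high (SE 0.24, adjusted p = 0.04) and 0.97 in control IgG medium (adjusted p = 0.022); the ATV-TfR call was lost with DESeq2, with no filter and without either control IgG pool, and the control IgG call with DESeq2 (0.98). Background was high in these bins: 2 of 7 members rose in ATV-TfR high, where 24.1% of genes were called, 2 rose and Apod fell in ATV-CD98hc high (29.8%), and 2 of 7 rose in control IgG medium (13.4%). The 2 ATVs did not differ in the high bin, by 0.14 for Vldlr (SE 0.19) and -0.31 for Sort1 (SE 0.20), and neither did their changes (-0.15, SE 0.32, and -0.02, SE 0.35); 0.00787% of genes were called in each. Apoe and Clu, both abundant here, were within 0.32 of negative in the high bins of both ATVs and were not called. Apod was 69.5 and 27.1 CPM in ATV-CD98hc negative and 15.6 or less in its positive bins, a fall called in low, medium and high (2.43%, 5.88% and 29.8% of genes; the low and medium calls were lost with marker-rich cells left out), while the other treatments held 29.2 CPM or less in every bin. In ATV-TfR low and medium Lcat was called higher (3.21 and 3.45; 4.47% and 1.65% of genes) and Sorl1 in medium (1.60). None of these was called with marker-rich cells left out (1.56, 1.28 and 0.91). The astrocyte list rose with them, from 720 and 1116 CPM in ATV-TfR negative to 2530 and 2576 in low and 2165 and 2139 in medium, and Lcat per list UMI in low was 0.00654 and 0.00694, beside 0.00716 and 0.00682 in astrocyte-like cells; in medium it was 0.00658 and 0.0116, beside 0.00744 and 0.0071. No member was called in control IgG low (4.99% of genes) or high (8.62%). Medium ATV-TfR exceeded medium ATV-CD98hc in Apoe (0.58), Lcat and Sorl1 and was lower in Apod (9.21% of genes called). With marker-rich cells left out Lcat turned to -0.32 and none of the 4 was called. No member was called between the ATVs in low (0.386%) or negative (0.063%) or between ATV-TfR and control IgG in negative (0.551%). The related receptor Lrp8 rose by 1.80 in ATV-CD98hc high and 1.51 in ATV-TfR high, as 1 of 3 risers of 12 other lipoprotein receptors in the former and 1 of 2 in the latter, and Pltp rose by 1.45 and 1.40. The endothelial marker list was 88.1 CPM or less in the ATV negative libraries of the class and 1965 to 5360 CPM in the ATV high ones, but 149 CPM or less in control IgG medium and high. The Lrp8 and Pltp rises were not rerun with marker-rich cells left out, so the part of endothelial RNA in them was not tested.

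In fibroblast-like cells Apod and Sort1 were called lower in AF647-positive bins of each treatment, where the mix of fibroblast clusters had changed as well. Apod was 8085 and 5356 CPM in ATV-CD98hc negative, 5516 and 3752 in low, 3049 and 2246 in medium and 1371 and 1229 in high. In ATV-TfR it was 7847 and 8771 in negative, 983 and 1118 in low and 544 and 809 in medium, and in control IgG 7777 in negative and between 517 and 1526 in the 6 positive libraries. Apart from ATV-CD98hc low, no positive library overlapped a negative one. Apod fell by 2.36 in ATV-CD98hc high (SE 0.34, adjusted p = 9.6e-05, edgeR), 3.66 in ATV-TfR medium (SE 0.36, adjusted p = 3e-07) and 2.66 in control IgG high (adjusted p = 4.3e-05). Sort1 was 131.6 to 250 CPM in the 5 negative libraries and 15.4 to 30.0 in all ATV-TfR and control IgG positive libraries and ATV-CD98hc high. The differences were -2.80 in ATV-CD98hc high (SE 0.28, adjusted p = 9e-07, edgeR), -2.49 in ATV-TfR medium (adjusted p = 8e-07) and -3.92 in control IgG high (adjusted p = 2.8e-08).

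The 2 fibroblast clusters differed in these genes and in their shares. Cluster 17, marked by Slc6a13, held 4744 CPM of Apod and cluster 15 held 693. Cluster 15 was 3.23% of the class in ATV-CD98hc negative and 69.4% in high, 5.50% in ATV-TfR negative and 58.7% and 54.1% in low and medium, and 3.80% in control IgG negative and 84.3% to 89.7% in its positive bins. Within cluster 17 alone the Apod change was -1.28 in ATV-CD98hc high and -0.75 in control IgG medium, neither called, while the ATV-TfR falls and the Sort1 fall in ATV-CD98hc high were kept there. For the whole class the Apod call in ATV-CD98hc medium was not kept in every alternative. Members called were 3 of 7 in ATV-CD98hc high (6.08% of genes), 2 in ATV-CD98hc medium (3.39%), 4 in ATV-TfR low (13%) and medium (13.5%), and 4 in control IgG low (11.7%), medium (13.3%) and high (10.3%). Sorl1 was called lower in ATV-CD98hc high and all control IgG bins, at 91.8 CPM or less. Cluster 17 held 67.9 CPM of Sorl1 and cluster 15 held 2.17. Within cluster 17 alone the Sorl1 value in control IgG low turned positive. Clu rose in ATV-TfR low (2.18, not called with DESeq2) and medium (3.31), from 112 and 33.3 CPM in negative to 821 and 691 in medium. Between the ATVs Apod was lower in ATV-TfR by 2.13 in low (4.7% of genes called) and 1.95 in medium (3.8%), and Sort1 by 2.04 and 1.35; at medium the Apod call was lost without ATV-TfR pool 1 (-1.71) and with marker-rich cells left out (-0.55), and the Sort1 call without either ATV-TfR pool.

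**Figure D4:**
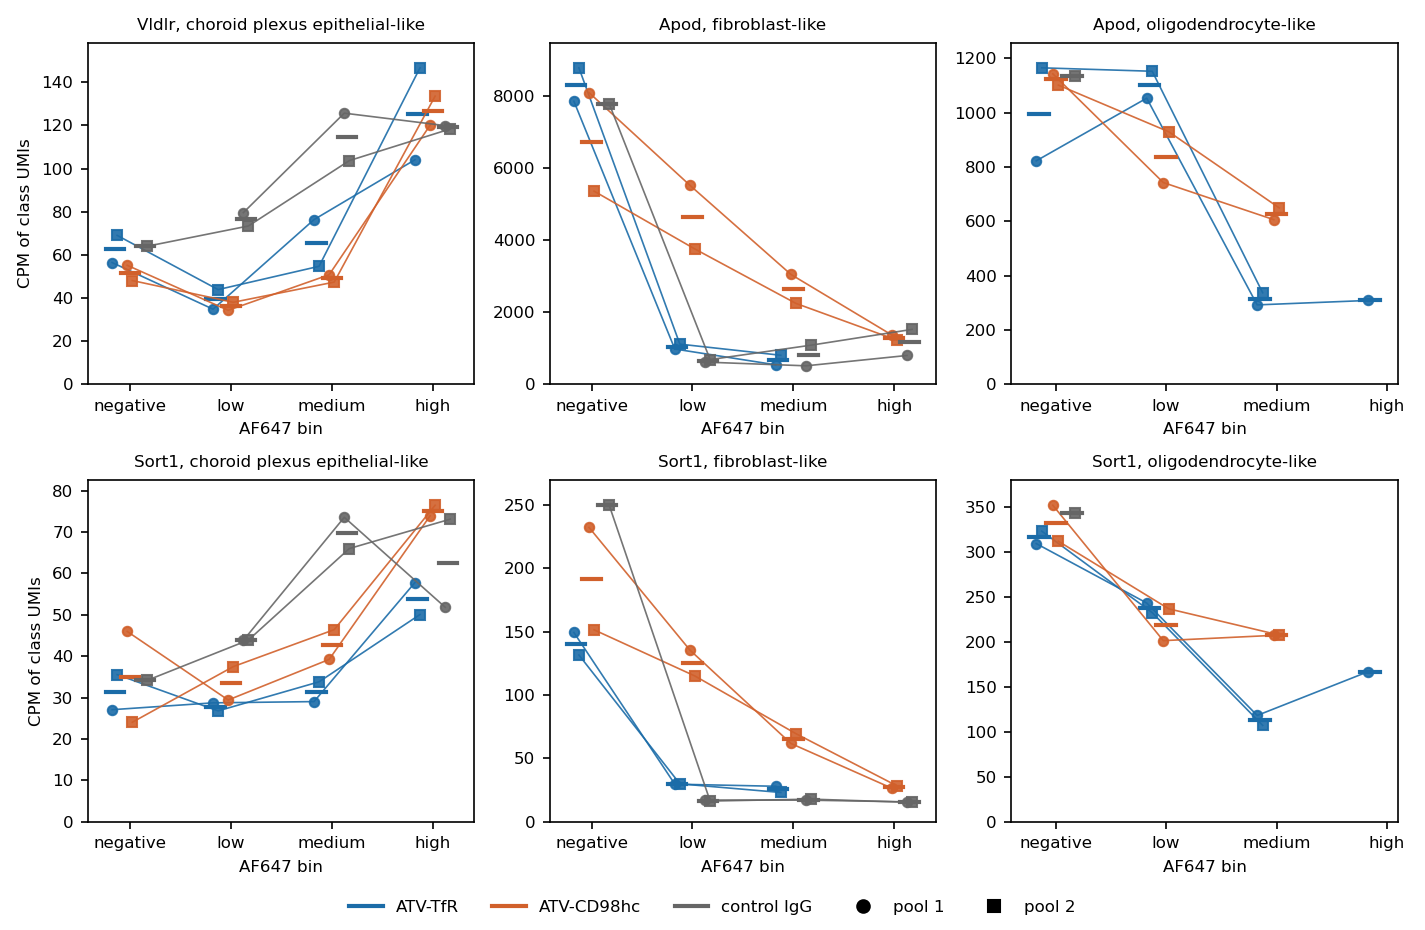
Vldlr or Apod (top) and Sort1 (bottom) by AF647 bin in choroid plexus epithelial-like, fibroblast-like and oligodendrocyte-like cells, in CPM per library. Points are pools, joined by lines, and bars are group means; both receptors rise in the choroid plexus panels, to 147 CPM for Vldlr, and Apod and Sort1 fall in the other classes.

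Clu was low in endothelial-like cells. In the 3 endothelial-like clusters Clu fell from 42.1 CPM in control IgG negative to 4.1 and 2.3 in low (-3.81, SE 0.48, adjusted p = 0.00039, edgeR; 3.28% of genes called). The astrocyte list fell with it, from 562 CPM to 131 and 114, and cluster 3 went from 22.9% to 56.4% of the class, while the fall was called within each of the 3 clusters (-3.26 to -4.88). Clu was 3.4 to 11.5 CPM in the 4 ATV high libraries. Apoe, at 636 to 2221 CPM, was called in none of the 4 comparisons that could be made in this class. Cluster 4 gave a wide Clu range. Clu was 413 and 716 CPM in ATV-CD98hc negative and 4.0 and 8.2 in high, and 899 and 1146 in ATV-TfR negative and 16.6 and 14.1 in high, with control IgG negative at 102. Clu therefore fell with signal by 6.27 in ATV-CD98hc high (SE 0.38, adjusted p = 6.2e-12, edgeR; 4.4% of genes called) and by 5.87 in ATV-TfR high (SE 0.35, adjusted p = 6.5e-13; 7.07% called), and medium was lower by 3.99 (2.98% called) and 2.82 (3.4% called). Lcat was also called lower in ATV-CD98hc high (-2.84) and medium (-2.74), but the ATV-CD98hc negative libraries held only 4 and 9 UMIs of it. The negative bins of both ATVs were above control IgG, by 2.35 and 3.24 (adjusted p = 0.0032 and 1.2e-05; 0.817% and 2.34% of genes called).

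Apoe moved up in the same cells, from 609 and 1041 CPM in ATV-CD98hc negative to 1428 and 1795 in high (1.16, SE 0.26, adjusted p = 0.0065, edgeR) and from 730 and 853 in ATV-TfR negative to 1423 and 1327 in high (0.98, SE 0.26, adjusted p = 0.015). The ATV-CD98hc call was lost without ATV-TfR pool 1 (1.11), which enters that comparison only through the fit shared by the class. The ATV-TfR call was lost with RLE factors (0.80), which shift the median of all genes here by more than 0.1. The ATV negative libraries of cluster 4 held 34 to 62 cells each. No member was called in ATV-TfR low (0.0497% of genes), ATV-CD98hc low (0.71%) or control IgG low (0.0781%), or between the ATVs in high (0.0355%). Medium ATV-TfR exceeded medium ATV-CD98hc in Clu (2.07) and Sorl1 (1.98) and was lower in Apod (-0.91; 3.17% of genes called), and of these only the Clu call was kept without each pool. In the 4 ATV negative libraries Clu was 1.41 to 3.21 UMIs per astrocyte-list UMI, against 0.088 to 0.134 in astrocyte-like cells of the same libraries, and in control IgG negative it was 0.219 against 0.0895.

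**Figure D5:**
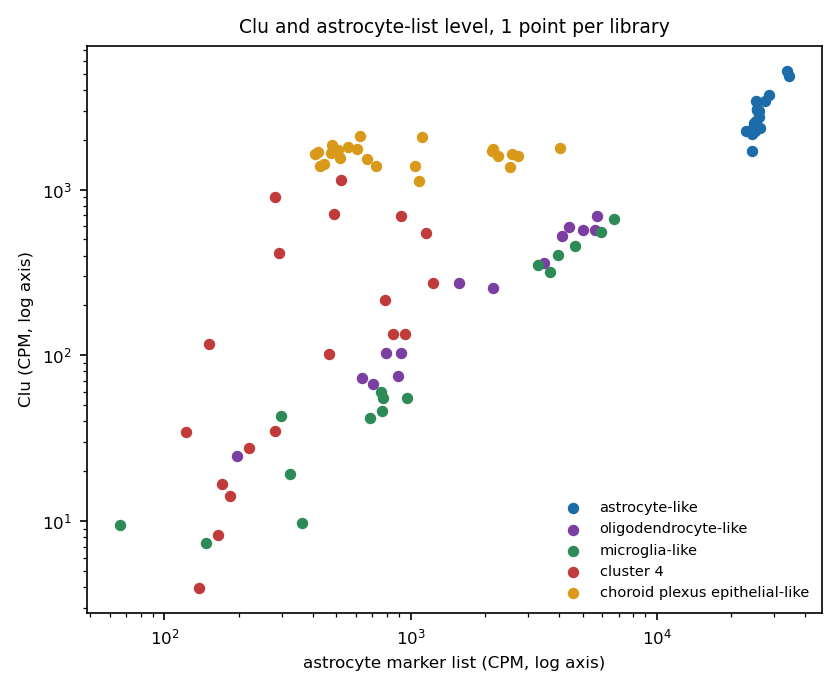
Clu against the summed astrocyte marker list in 5 classes, both in CPM on log axes, with 1 point per library; 1 library with Clu at 0 is left out. Microglia-like and oligodendrocyte-like points lie along a line toward the astrocyte-like points, whereas choroid plexus epithelial-like cells stay near 1643 CPM and cluster 4 reaches 1146 CPM at low list levels.

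In the remaining classes some calls came with a higher astrocyte marker list. In pericyte-like cells Apoe was 439 to 898 CPM in the negative libraries and 5127 and 2348 in ATV-CD98hc low and 1694 and 4467 in ATV-TfR medium, higher by 2.40 and 2.60 (adjusted p = 7.9e-05 and 1.8e-05, edgeR; 6.82% and 6.28% of genes called), with Clu, Lcat and Sorl1 called higher beside it. Of these the Sorl1 call in ATV-CD98hc low was not kept in every alternative. Astrocyte-list levels in these 4 libraries were 9511 to 12694 CPM against 8011 to 9177 in the negative ones, where pericyte-like cells themselves carry genes of that list. In proportion Apoe rose by more than the list, here and in the smooth muscle-like cells that follow. Apoe and Clu were also called in pericyte-like cells of ATV-TfR low and Clu in ATV-TfR high. These calls were not kept in every alternative. In smooth muscle-like cells Apoe was 220 and 283 CPM in ATV-TfR negative and 1962 and 1990 in low (2.89, SE 0.25, adjusted p = 5e-13, edgeR; 5.02% of genes called), with Clu (3.04) and Lcat (2.54) called higher beside it, and the list rose from 2615 and 2879 to 5236 and 6392 CPM. Border macrophage-like cells, with the highest Apoe of all, had 21180 and 24887 CPM in ATV-TfR negative, 28417 and 32454 in ATV-TfR high, 25920 in control IgG negative and 45864 and 57513 in control IgG low. Each positive library of these lay above its negative libraries, yet the tests gave 0.16 (SE 0.29) and 1.01 (SE 0.37, adjusted p = 0.31) and called no Apoe change in this class (8.6% and 1.02% of genes called). Clu was the member called there, higher in ATV-TfR low (4.17; 5.93% of genes) and medium (3.50; 3.88%), lower in all control IgG bins (1.34% of genes in medium and 2.46% in high), and higher in ATV-TfR than in ATV-CD98hc at medium (1.80; 3.09%). With marker-rich cells left out none of these was called, and the control IgG values turned to 3.51 in low, 4.08 in medium and 0.00 in high. No member differed between the ATVs in low (0.0448%) or between ATV-TfR and control IgG in negative (0.0336%). In ependymal-like cells Apoe was 7847 and 8341 CPM in ATV-TfR negative and 5196 and 3016 in low, lower by 1.03 (SE 0.26, adjusted p = 0.011, edgeR; 7.98% of genes called), with 33 and 21 cells in low. Cluster 46, with 1417 CPM of Apoe against 8345 in cluster 25, went from 3.92% to 46.3% of the class between these bins, and the ependymal marker list from 13002 and 12470 CPM to 8902 and 7455.

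Between treatments in the negative bin 3 of 124 member tests of an ATV against control IgG were called. This count spans comparisons with different shares of all genes called, each with 1 control library, and is not read as a result about the members. The calls were the 2 Clu values of cluster 4 above and Apod in smooth muscle-like cells of ATV-CD98hc (3.72, SE 0.66, with 0.0276% of genes called). The latter rested on 1 pool, at 53.7 CPM against 6.6 in the other ATV-CD98hc pool and 2.7 in control IgG, and it was lost with DESeq2 and with at least 50 cells. Between the ATVs in the negative bin Apod and Apoe were called in smooth muscle-like cells. Neither of these calls was kept in every alternative. Between the ATVs at matched bins 34 of 219 member tests were called, 23 higher and 11 lower in ATV-TfR. The number was 16 without ATV-TfR pool 1 and 21 without ATV-TfR pool 2. This total spans comparisons with different shares of all genes called, given with the classes above. It is therefore not read as a result about the members.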

How the data were processed

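The authors' deposited matrix held UMI counts per gene and barcode for 23 libraries, made with Cell Ranger 7.1.0 per the file headers; Seurat 4 and 5 and the builds mm10 and GRCm38 are named per the submitters' processing notes, and how cells were called is not stated in these sources. The other deposited files (unit: other) held barcodes, gene symbols and library names. Barcodes with at least 500 genes, 800 UMIs and at most 10% mitochondrial UMIs were kept (249715 of 265025). Scrublet doublets (15689) were removed, by the 94th percentile in 8 libraries. Cells were clustered without the members, Tfrc and Slc3a2 among the 2000 variable genes (scanpy 1.11.5, 50 components, 15 neighbours), and clusters were named from 21 marker lists. Counts were summed per class and library with at least 20 cells and fitted per class with edgeR 4.0.16 (R 4.3.3; filterByExpr, TMM factors, 1 mean per treatment and bin, quasi-likelihood test, Benjamini-Hochberg adjusted p below 0.05), after a check on simulated data. Members and lists were chosen with earlier results of these data known. The 7 members could be named in any class; of other lists at most 4 called genes with the lowest adjusted p per comparison, plus those needed for a count of 5 or fewer; and the 3 genes most like each member. Within a treatment, bins with the same pool number share animals, so pool numbers pair them there and not between treatments. Their deviations correlated with a median of 0.092 over 23 pairs of class and treatment (11 above 0.1). The values ranged from -0.10 to 0.53. They were 0.42 in astrocyte-like ATV-TfR, 0.40 in cluster 4 of ATV-CD98hc and 0.53 in fibroblast-like control IgG. Alternatives were RLE factors, DESeq2 1.42.0, no filter, at least 50 cells, doublets kept, cells with over 0.2% astrocyte-list or endothelial-list UMIs left out, pool as a block, each pool left out, and, chosen after seeing the data, single larger clusters. Promoter motifs were also chosen after seeing the sequences. For the limit on marker UMIs, sums were made by either list alone and by both. Results for the list of cholesterol regulators are not reported here.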

Additional observations from a re-analysis of the deposited data

Results flagged for a closer look

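Of 59 class levels of at least 20 CPM, 6 had 1 pool far from the rest, where chance flags about 1 in 20. Apoe in microglia-like cells was 13704 CPM in control IgG pool 1 against 1354 to 3663 in the other 5 pools, and Sort1 in the same pool and class was 58.2 CPM against 156 to 186; that pool has no negative bin here, so its microglia-like cells came from positive bins only. Apoe was 1179 CPM in B cell-like cells of ATV-TfR pool 2 (others 240 to 590) and 1308 CPM in T or NK cell-like cells of ATV-CD98hc pool 2 (others 293 to 554). Clu was 938 CPM in neutrophil-like cells of ATV-TfR pool 2 (others 0 to 246). Apoe was 957 CPM in endothelial-like cells of ATV-CD98hc pool 1, below the 1243 to 1408 of the others.

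In astrocyte-like cells the change from negative to high differed between the ATVs, by the interaction test of edgeR, in Apoe (0.87), Clu (1.69) and Lcat (1.04), in each case higher in ATV-TfR. Among the 4 classes in which this difference could be tested, these were the members called. The Apoe and Lcat calls were lost without either ATV-TfR pool, and the Clu call was kept without each pool. Within cluster 2 alone none was called.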

How the results depend on the processing

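Of 144 called member results, 73 kept their call in every alternative that gave a value, single clusters aside. Without each pool whose removal gave a value, 110 kept it. With marker-rich cells left out 5 reversed, and others did so within single clusters. Bins within a treatment could not be compared without a pool of that treatment, since at most 1 library per bin was left. Their calls were rerun only without pools of the other treatments, which share the fit. An ATV could not be compared with control IgG without a pool of that ATV or without control IgG pool 2. Over the pools left out in turn, called tests ranged from 32 to 35 for bins within ATV-CD98hc (35 in full), 47 to 58 within ATV-TfR (49), 19 to 20 within control IgG (20), 16 to 43 between the ATVs at matched bins (34; lowest without ATV-TfR pool 1, 21 without pool 2), 2 to 3 for ATVs against control IgG (3) and 1 to 3 for the difference of changes (3; 1 without ATV-TfR pool 1 or 2).

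With no filter the difference of changes had 5 calls and ATVs against control IgG 9, as with doublets kept (9). With at least 50 cells ATV-CD98hc bins had 20 calls over 9 of 20 comparisons and ATVs against control IgG 0 over 12 of 19. With marker-rich cells left out the calls were 13 (11 of 20 comparisons) for ATV-CD98hc bins, 20 (13 of 23) for ATV-TfR bins, 10 (23 of 33) at matched bins, 0 (13 of 19) against control IgG and 3 (8 of 12) for control IgG bins. Fewer comparisons were left in these 2 settings. With pools as a replicate block within each treatment, no count for bins within a treatment moved by over 1.5 times. Pools of different treatments are different animals and are not paired, so the 54 matched-bin calls and 7 calls against control IgG under the block leave the spread between pools out of the error.

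The class with the highest level was the same for 6 of 7 members in the negative bins alone (all but Sorl1, since no neutrophil-like level could be had there) and with marker-rich cells left out (all but Apod). Border macrophage-like Apoe was 23995 CPM in the negative bins, and fibroblast-like Apod 7567 CPM there and 848 CPM without marker-rich cells.

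With marker-rich cells left out the reversed values were, for Clu, 0.00, 3.51 and 4.08 in border macrophage-like cells of control IgG high, low and medium and -0.81 in oligodendrocyte-like cells of ATV-CD98hc medium, and for Lcat -0.32 in choroid plexus epithelial-like cells between the ATVs at medium. Within single clusters they were -1.42 for Clu in ATV-CD98hc medium (cluster 18, oligodendrocyte-like), -0.082 for Sorl1 in ATV-CD98hc medium and -0.16 in high (clusters 2 and 5, astrocyte-like), -0.12 for Lcat in ATV-TfR high and -0.0023 for its difference of changes (cluster 2), -0.16 for Apoe between the ATVs at medium (cluster 7) and 0.31 for Sorl1 in control IgG low (cluster 17, fibroblast-like). The cause was not tested. RLE factors and DESeq2 shifted the median of all genes in cluster 4 by -0.12 to -0.18 between positive and negative bins and turned no member's direction.

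Positive bins of rare classes held as few as 20 cells, so a member near 5 CPM rests on single UMIs there, and its absence was not detectable at this depth.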
